A study of Homo sapiens with 2 samples.

Results

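The HOXC cluster with HOTAIR was examined in HEK293T cells that overexpressed IRX1. Members were all probe sets whose platform annotation names exactly 1 of 10 genes, the HOXC genes HOXC4, HOXC5, HOXC6, HOXC8, HOXC9, HOXC10, HOXC11, HOXC12 and HOXC13 and the noncoding gene HOTAIR. Each had 1 probe set, a group of probes that reads a stretch of a transcript, so that 10 of 54675 probe sets and 10 of 19775 named genes were members. HEK293T cells derive from human embryonic kidney and express a viral large T antigen. The GFP control was transfected with pcDNA3.1-GFP, and the IRX1::GFP cells with pcDNA3.1-IRX1::GFP, which encodes the homeobox protein IRX1 fused to GFP. Both groups were sorted by FACS for GFP and harvested 48 h after transfection with polyethylenimine, so the model is transient overexpression in 1 cell line. There was 1 array per condition, while the legend of the experiment gives n = 3. Whether an array is 1 of these replicates or a pool is not stated there. The spread between cultures is therefore unknown, and no p-value is printed.

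HOX genes encode homeodomain transcription factors that give cells their position along the body axis. They lie in 4 clusters, HOXA, HOXB, HOXC and HOXD, and genes with the same number in different clusters are paralogs, copies that arose when the clusters were duplicated. Genes with low numbers act in anterior parts of the embryo, and those with high numbers in posterior parts. The MLL complex is known to keep HOX genes active and Polycomb complexes to keep them silent. HOTAIR is a long noncoding RNA that is transcribed from the opposite strand inside the HOXC cluster and is known for its reported link to Polycomb repressive complex 2 (PRC2) and to the HOXD cluster.

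In the annotation (RefSeq, GRCh38.p14), HOXC4, HOXC5 and HOXC6 begin at the same base, and the promoter windows listed for HOXC4 and HOXC5 were identical. That shared sequence is shown because, of these 3 genes, HOXC5 was called higher and HOXC4 and HOXC6 were not. It is the 250 bases before the start, chr12:54016638-54016887 on the plus strand of GRCh38.p14, and 2 of the 10 members had a window in the table. Capitals mark CCAAT boxes, here read as ATTGG because both lie on the other strand.

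HOXC4 and HOXC5: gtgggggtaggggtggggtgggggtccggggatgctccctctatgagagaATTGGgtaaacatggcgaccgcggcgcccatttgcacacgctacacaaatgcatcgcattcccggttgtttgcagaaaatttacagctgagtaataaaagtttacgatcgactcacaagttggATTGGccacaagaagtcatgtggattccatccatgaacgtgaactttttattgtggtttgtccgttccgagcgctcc

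The 2 CCAAT boxes end 196 and 73 bases before the start, and 32.0% of 35116 RefSeq promoter windows of the same length held at least 1 such box on either strand. The letters ACANNTGT, a site bound by Iroquois proteins such as IRX1, were not in this window and were in 4.71% of all windows. The letters GCGNGGGCG, the site of the EGR transcription factors, were also not in it and were in 8.41% of all windows. Neither was TATAAA, the TATA box, which 10.7% of windows held. All motifs were searched on both strands, and none of them contains another. HOXC genes have further starts of their own, and which of them these cells used was not measured.

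Signals were deposited as MAS5 values on a linear scale, with a mean of 1000 on each array once the lowest and highest 2% were left out. Olfactory receptor genes served for the background, the 90th percentile over their 107 probe sets, which came to 143 for the GFP control array and 179 for the other. Log2 ratios divide the IRX1::GFP signal by that of the GFP control and are positive where the signal was higher with IRX1::GFP. Genes were kept where the mean of both signals reached 183, and were called at a change of 2-fold or more. The only probe set named for IRX1 read 33.1 and 57.0, neither above background, and its place relative to the transfected cDNA is unknown. It gives no check of the labels. Of 7 markers of the labelled line, such as neurofilament, keratin and PAX2 genes, 5 were above background in the GFP control and 7 in IRX1::GFP cells, and the levels of single markers differed between the arrays. VIM (vimentin) read 38213 and 28168, while the other 6 were all higher with IRX1::GFP, among them NEFL at 3205 and 8765 and KRT18 at 2046 and 4480. The summed signals of 48697 and 51134 are mostly VIM. Of 10 measured markers of blood, liver, skin and fibroblasts, 4 were above background in the GFP control and 2 in IRX1::GFP cells. PTPRC, SPI1, KRT5, KRT14 and COL3A1 were below background on both arrays. Above it in the GFP control array alone were the T cell marker CD3E (244 and 168), the liver marker ALB (219 and 135) and the fibroblast marker DCN (184 and 117), and with IRX1::GFP alone the liver marker APOA1 (84.7 and 315). The fibroblast marker COL1A1 read 631 and 2571, and COL3A1 76.2 and 27.5, so that the summed fibroblast signal of 891 and 2715 rests on COL1A1. The part of other cells in the results was not tested, and in sorted bulk cells fewer cells of a type and less RNA per cell cannot be told apart. On the same arrays the ACTB control probe sets gave a 3-prime over 5-prime ratio, which tracks RNA quality, of 3.23 (GFP control) and 1.64 (IRX1::GFP), and those of GAPDH gave 1.22 and 1.01. The part of RNA quality in the results below was not tested.

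HOXC5 and the posterior genes HOXC10 and HOXC13 had the higher signal with IRX1::GFP, while HOXC4, HOXC6 and HOXC9 read nearly equal signals on both arrays. HOXC5 was 3.84-fold, HOXC13 3.31-fold and HOXC10 2.28-fold higher. HOTAIR lay at the limit of 2-fold. Of 9 members past the filter, 3 were called higher and none lower. Over all 12193 genes past the filter, 10.4% were called higher and 5.34% lower, and after median centring of the arrays 7.12% and 8.93%. Calls use the log2 ratio as measured, and 257 of the 1267 higher and 110 of the 651 lower genes had 1 signal below background, which was not so for any of the 3 members. HOXC10 fell just short of the call after that centring, with a log2 ratio of 1.00. The median log2 ratio of the 9 members was 0.78, and that of all genes past the filter 0.07. Noise could be gauged only from how far probe sets of the same gene differed, with an SD of 0.49 (log2) in 5930 genes. It leaves out differences between cultures and any that the probe sets of a gene share on an array. The SD was pooled over dim and bright genes and was not computed for dim genes alone.

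**Figure D1:**
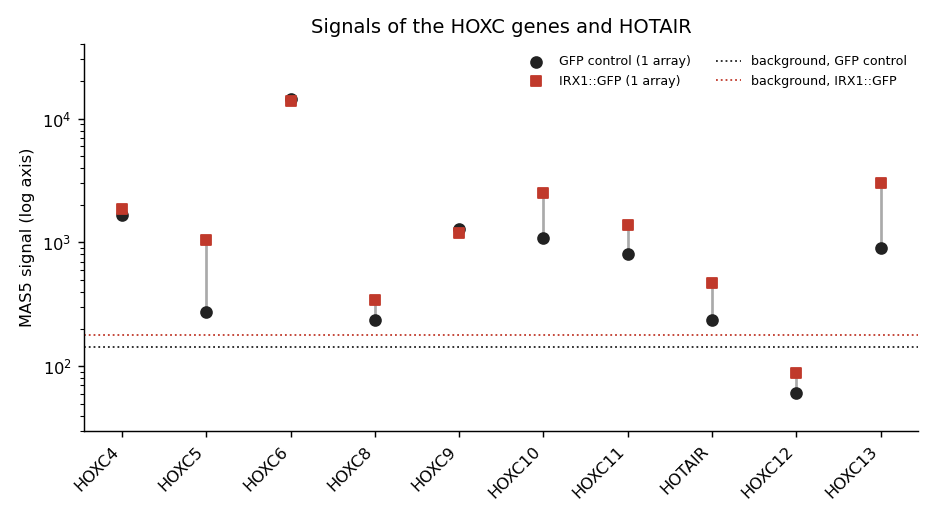
MAS5 signal on a log axis for each HOXC gene and HOTAIR in the GFP control (black circles) and with IRX1::GFP (red squares), 1 array per condition, with the background level of each array as a dotted line. HOXC5, HOXC10 and HOXC13 show the widest gaps, HOXC12 lies below background on both arrays, and heights of different genes are not comparable because each has its own probes.

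Among the anterior genes of the cluster, HOXC4 read 1658 in the GFP control and 1874 in IRX1::GFP cells. HOXC6 read 14285 and 13848. HOXC5, which lies between them, read 273 and 1048. HOXC5 was thus 1.90 times the background level of its array in the GFP control and 5.86 times in IRX1::GFP cells. The log2 ratios were 0.18 for HOXC4 (-0.02 after median centring), -0.04 for HOXC6 and 1.94 for HOXC5, in genes that share an annotated start. Only that of HOXC5 exceeded the SD of 0.49 between probe sets of the same gene. The HOXC6 probe set carries the suffix for probes that match several transcripts, and in the annotation the 3 genes overlap.

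HOXC8 and HOXC9, next in the cluster, act in the thoracic part of the body axis. HOXC8 read 237 in the GFP control and 346 in IRX1::GFP cells, a log2 ratio of 0.55 at signals 1.65 and 1.94 times background. HOXC9 read 1291 and 1182, a log2 ratio of -0.13. Both were within 2-fold. HOXC9 and HOXC6 were the only members past the filter with a log2 ratio below 0, and both ratios were smaller than the SD between probe sets.

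The genes from HOXC10 to HOXC13 had higher signals with IRX1::GFP where they passed the filter. A cut between HOXC9 and HOXC10 was not planned, and HOXC9, beside HOXC10, had a log2 ratio of -0.13. HOXC10, which acts in hindlimb and lumbar patterning, read 1092 in the GFP control and 2490 in IRX1::GFP cells, a log2 ratio of 1.19. HOXC11 read 808 and 1387, a log2 ratio of 0.78 that was 1.72-fold and within the limit. HOXC13, a regulator of hair and nail keratins, read 909 and 3010, a log2 ratio of 1.73. The 3 log2 ratios ran from 0.78 to 1.73. In the 5 genes from HOXC4 to HOXC9 the log2 ratios ran from -0.13 to 1.94, with a median of 0.18. The HOXC12 signals of 60.3 and 88.3 were both below background, so no fold is given and HOXC12 did not pass the filter. The HOXC13 probe set carries the suffix for shared probes and is the only one for this gene.

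HOTAIR, which is annotated between HOXC11 and HOXC12 and overlaps HOXC11, read 237 in the GFP control and 474 in IRX1::GFP cells. Both signals were above background, at 1.65 and 2.65 times its level. The log2 ratio was 1.00 and the fold, unrounded, fell just short of 2, so HOTAIR was not counted as higher. HOXC11 and HOTAIR lie on opposite strands there, and which stretch of each the probe sets read is not stated in the sources used here. HOXC-AS3, an antisense RNA that overlaps HOXC10, read 124 and 111, both below background, so no fold is given. HOXC13-AS, which overlaps HOXC13, was not analysed here.

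Higher calls were more frequent among dim genes. The genes past the filter were divided by mean signal into 4 bins, in which 17.9%, 12.4%, 7.15% and 4.1% of genes were at least 2-fold higher, from the dimmest to the brightest. The shares at least 2-fold lower were 5.38%, 4.95%, 6.86% and 4.17%, and the median log2 ratio was 0.29 in the dimmest bin and -0.04 in the brightest. HOXC5, in the second bin, had a log2 ratio that 1.74% of the 3048 genes there exceeded. HOXC13, in the third bin, had a ratio that 1.74% exceeded as well. For HOXC10, also in the third bin, the share was 4.95%, and for HOXC11 in the second bin 19.1%. HOTAIR and HOXC8 were in the dimmest bin, where 17.9% and 36.3% of 3049 genes exceeded them. HOXC4 was exceeded by 36.5%, HOXC6 by 50.8% and HOXC9 by 65.0% of the genes in their bins. HOXC5, HOXC13 and HOXC10 therefore lay near the upper end of genes of like mean signal, and HOTAIR did not stand out from its bin to the same degree. The mean includes the IRX1::GFP signal, so a rise moves a gene towards the brighter bins, where high ratios were rarer. The GFP control signals of HOXC13 (909) and HOXC10 (1092) lie in the range of the second bin, 536 to 1519. The 95th percentile of log2 ratios there was 1.45, above the 1.19 of HOXC10 and below the 1.73 of HOXC13. That of HOXC5 (273) lies in the dimmest bin, with a 95th percentile of 1.79 beside its 1.94. Bins by GFP control signal were not made. These shares describe 1 pair of arrays.

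The genes on either side of the cluster stayed mostly within 2-fold by the probe set of highest mean signal. Of 13 listed neighbours past the filter, none was at least 2-fold higher and 1 was lower, with a median log2 ratio of 0.24. The shares over all genes past the filter were 10.4% and 5.34%, so counts this small do not set the neighbours apart. The other 5 of the 18 neighbours did not pass the filter. Among these GPR84, named after its values were seen, read 17.8 and 232 and was at least 1.62-fold higher. NPFF, a neuropeptide precursor gene, was the lower one, with 297 and 122. The latter is below background, so the supported fold, at least 1.66-fold lower, is short of 2-fold, and NPFF passed the filter through its GFP control signal. CALCOCO1, the nearest listed neighbour past HOXC13, read 535 and 887, a log2 ratio of 0.73. ATF7, a bZIP transcription factor gene, read 1448 and 870, a log2 ratio of -0.73. On the other side, beyond HOXC4, the 7 genes past the filter had log2 ratios from -0.07 to 0.50 by the probe set of highest mean signal. CBX5, which encodes a heterochromatin protein and was also named after its values were seen, had 0.26 by that rule, while 3 of its other 4 probe sets past the filter had -0.63, -0.68 and -1.02. The log2 ratios of HOXC5, HOXC10, HOXC13, HOTAIR and HOXC11 were each higher than that of any of these 13 neighbours by the same rule. The comparison leaves out neighbours and probe sets under the filter, such as GPR84. No test of this difference was possible with 1 array per condition.

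Each HOXC gene was also set beside its paralogs in the HOXB and HOXD clusters. In all 12 pairs with both genes past the filter, the HOXC gene had the higher log2 ratio, by at least 0.20. The 12 pairs hold 8 HOXC genes and are not independent. HOXC13, at 1.73, stood beside -1.37 for HOXB13 and -0.74 for HOXD13. HOXB13 read 1219 in the GFP control and 471 in IRX1::GFP cells, but its other probe set went the other way, at 171 and 206, a log2 ratio of 0.27. The HOXC13 ratio exceeded that probe set by 1.46. HOXD13 read 3060 and 1832, and HOXC13 exceeded its 3 probe sets by 2.26 to 2.47. The HOXC10 paralog HOXD10 read 4355 and 3856, a log2 ratio of -0.18 beside 1.19 for HOXC10. HOXB5 read 849 and 1135, a log2 ratio of 0.42 beside 1.94 for HOXC5. HOXD4, at 683 and 310, was with HOXB13 1 of the 2 HOXB and HOXD genes called lower, with a log2 ratio of -1.14 beside 0.18 for HOXC4.

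The other gaps were narrower. HOXC9 exceeded HOXD9 by 0.20 and HOXB9 by 0.44, HOXC6 exceeded HOXB6 by 0.22, and HOXC4 exceeded HOXB4 by 0.23. HOXC8 exceeded HOXB8 by 0.71 and HOXD8 by 0.57, and HOXC11 exceeded HOXD11 by 0.68. For a difference of 2 log2 ratios the SD between probe sets comes to 0.69, and 6 of the 12 gaps were wider than that. Over all probe sets past the filter in place of the brightest, the HOXC gene had the higher ratio in 19 of 19 pairs. These pairs include the 12 gene pairs, reuse the same HOXC probe sets and are not independent. The members' median log2 ratio of 0.78 stood beside -0.19 for 9 HOXB genes and -0.18 for 7 HOXD genes. In each of these 2 clusters none was called higher and 1 lower, beside 10.4% and 5.34% of all genes past the filter. HOXD1, which has no HOXC paralog and so is in no pair, read 473 in the GFP control and 832 in IRX1::GFP cells. Its log2 ratio of 0.82 was above that of HOXC11. Of the HOXA cluster only HOXA2 was analysed here, which has no HOXC paralog. Differences between the clusters could not be tested with 1 array per condition.

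Noncoding RNAs of the HOX clusters other than HOTAIR did not share 1 direction. Of 9 past the filter, 1 was called higher and 1 lower, beside 10.4% and 5.34% of all genes. The median log2 ratio of the 9 was 0.09. With median centring, quantile normalization or loess none was called higher. The higher one was PRAC1, a neighbour of HOXB13 that the list holds although it encodes a small nuclear protein, with signals of 121 and 256. The former is below background, so the supported fold, at least 1.79-fold higher, is short of 2-fold, and PRAC1 passed the filter through its IRX1::GFP signal. The lower one was HOXB-AS3, an antisense RNA of the HOXB cluster, which read 3708 and 1043, 3.56-fold lower. All 5 of its probe sets were lower with IRX1::GFP, 4 of them by 1.34-fold to 3.73-fold and the fifth, whose IRX1::GFP signal was below background, by at least 2.07-fold. HAGLR, an antisense RNA of the HOXD cluster, read 405 and 599 and was within 2-fold.

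HOX proteins bind DNA with partners of the TALE homeodomain class. Among the MEIS, PBX and PKNOX genes 7 passed the filter, 1 called higher and 1 lower. For this list and the next 2, the shares over all genes past the filter were 10.4% higher and 5.34% lower. The median log2 ratio of all these genes was 0.07. PBX4 read 460 in the GFP control and 1164 in IRX1::GFP cells, and MEIS1 1769 and 368. Of 16 genes for PRC2, its accessory proteins, the HOTAIR partner complex of KDM1A and the H3K27 demethylases, 1 was at least 2-fold higher and 4 were lower, with a median log2 ratio of -0.41. AEBP2, a PRC2 cofactor, read 5738 and 2487, a log2 ratio of -1.21. KDM6A, which removes the mark that PRC2 sets, read 5123 and 2326, and its other 3 probe sets were 1.74-fold to 3.29-fold lower. MTF2, a Polycomb-like PRC2 subunit, read 11781 and 5429, and its other 4 probe sets were 1.94-fold to 2.77-fold lower. EZH2, the methyltransferase of PRC2, read 12987 and 6201, and PHF1, a second Polycomb-like subunit, 2993 and 6229. The other PHF1 probe set read 246 and 365, 1.49-fold higher and so within 2-fold. EZH2 and PHF1 are named because they complete the count. After median centring none of the 16 was higher and 5 were lower, beside 7.12% higher and 8.93% lower over all genes. Of 16 genes of the MLL complexes none was higher or lower, with log2 ratios from -0.79 for PSIP1, which encodes LEDGF, to 0.66 for KMT2D. The other probe sets past the filter were closer to no change, at -0.38 each for PSIP1 and 0.53 and 0.19 for KMT2D. KMT2C, another MLL family methyltransferase gene, had -0.73, but its other 3 probe sets past the filter had 0.14, -0.03 and -0.27.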

How the data were processed

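RNA of sorted GFP-positive HEK293T cells was hybridised to HG-U133 Plus 2.0 arrays, 1 for the GFP control and 1 for IRX1::GFP. The intensity of each probe set was deposited as a linear MAS5 signal. The submitters' processing notes name MAS5; its version and target were not given in the sources used here. Detection calls were not used, and precision is limited by the number of arrays.

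The array holds 54675 probe sets, of which 41097 carried a single symbol, 1801 more than one, and 11777 none here. Symbols were updated through gene identifiers of RefSeq (GRCh38.p14), in which 41043 were found; its coordinates served only for gene order, overlaps and the promoter window. For each gene the probe set of highest mean signal was used, and genes were kept from the 50th percentile of mean signals upward. Folds with 1 signal below background are bounds against the background level. No test was made between conditions, since each has 1 array.

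The members, the gene lists and the alternatives were chosen with earlier results of these data known. All members were named, with up to 3 genes of each other list with the largest changes; every HOX gene past the filter could be given as a paralog. EZH2, PHF1, CBX5, GPR84, MAP3K12 and the markers of other cells that are named singly were added after their values were seen. The count over paralog pairs was added then as well. HOXC-AS3, which overlaps HOXC10 and did not pass the filter, was also named outside that choice. Lists covered the HOXA, HOXB and HOXD genes, noncoding RNAs of the HOX clusters, neighbours of the HOXC cluster, TALE partners, PRC2 with partners of HOTAIR, and MLL complexes; UTY was left out. Alternatives tried were median centring, quantile normalization, loess (span 0.3), no filter, filters at the 75th percentile or the olfactory receptor level, signals raised to a floor, the mean over probe sets, and only _at probe sets. The steps were tested on simulated data with planted changes larger than the 2-fold limit. That does not show how calls near the limit behave. Python 3.11.15, numpy 2.4.6, pandas 2.3.3, statsmodels 0.14.6 and matplotlib 3.10.9 were used.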

Additional observations from a re-analysis of the deposited data

How the results depend on the processing

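No paired analysis was possible because there was only 1 array for each condition, and for the same reason no array was left out. Over the 9 alternatives the count of HOXC genes and HOTAIR at least 2-fold higher was 2 or 3, that of lower ones 0, and their median log2 ratio 0.48 to 0.78. Median centring moved the median log2 ratio of all genes past the filter by -0.20, to -0.12, and changed the split of all genes from 10.4% higher and 5.34% lower to 7.12% higher and 8.93% lower. Under it HOXC5, at 1.75, and HOXC13, at 1.54, remained at least 2-fold higher. HOXC10 fell just short of that limit at 1.00, HOTAIR read 0.81 and HOXC4 -0.02. HOXC5 did not reach the filter at the 75th percentile, and HOXC6 and HOXC13 have no _at probe set. Since each member has 1 probe set above the floor on both arrays except HOXC12, only the 3 normalizations could change their log2 ratios. Under them HOXC5 ranged from 1.75 to 1.84, HOXC13 from 1.54 to 1.75, HOXC10 from 1.00 to 1.21 and HOTAIR from 0.81 to 0.86. HOXC12 read 0 with signals raised to a floor. In the comparison with paralogs, whose alternatives were chosen after seeing the data, quantile normalization, loess and the mean over probe sets could change the differences. The HOXC gene had the higher log2 ratio in 12 of 12 pairs under each, with lowest differences of 0.14, 0.16 and 0.23. Median centring cannot change a difference, and the filters and probe set types mainly choose which pairs are counted. There were 6 pairs with the filter at the 75th percentile, 7 with only _at probe sets and 13 without a filter, where the added pair, HOXC12 and HOXD12, was below background on both arrays. HOXC8, HOTAIR and the GFP control signal of HOXC5 lie less than 3 times above background, which limits their precision, and 1 array per condition limits that of all members.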
